A study of Mus musculus with 6 samples.

Results

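The stellate cell and fibroblast genes Pdgfra, Pdgfrb, Vim, Thy1, Dcn, Lum, Acta2, Tagln and Des were followed in whole pancreas RNA of mice with and without deletion of Ptf1a. They were taken by symbol, and all 9 were found among the 10245 gene symbols of the deposited table. Control mice were Ptf1a(CreER/+) and conditional knockout mice (Ptf1a cKO) were Ptf1a(CreER/fl), with 3 mice and 1 library per mouse in each group. Mice of both genotypes carried 1 CreER allele at the Ptf1a locus. By the authors' account this allele makes no PTF1A, so the controls were functionally heterozygous for Ptf1a. All mice received tamoxifen by gavage at 0.25 mg/g on 3 consecutive days, with tissue taken on day 14. Control mice were 4 months old and Ptf1a cKO mice 5 months old, so age and genotype cannot be told apart. Replicate 1 of the controls and replicate 2 of the Ptf1a cKO were males and the other 4 mice were females. Because CreER is driven from the Ptf1a locus, whose activity in the adult pancreas is acinar, the stromal cells that express the genes described here are not the cells in which recombination was directed.

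Pancreatic stellate cells are resident mesenchymal cells that lie between the acini. In the healthy organ they are quiescent and store vitamin A as lipid droplets, and after injury they can become myofibroblast-like, with alpha-smooth muscle actin fibres and secretion of fibrillar matrix. Fibroblasts of the septa and around ducts share much of this repertoire, and vascular smooth muscle and pericytes share its contractile part. Pdgfra and Pdgfrb encode the receptors for platelet-derived growth factors, Vim and Des encode intermediate filament proteins, and Thy1 encodes a surface glycoprotein of fibroblasts that T cells and neurons also carry. Dcn and Lum encode the small leucine-rich proteoglycans decorin and lumican, which bind fibrillar collagen. Acta2 encodes alpha-smooth muscle actin, Tagln encodes the actin-binding protein transgelin (SM22), and Des, as the muscle-type filament, was grouped with these 2 as the contractile genes.

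Values are normalized counts, which the authors had put on a common scale across the 6 libraries. Library medians over genes ran from 125.0 to 128.5 normalized counts. Ptf1a, the check of the labels, had between 566 and 652 normalized counts in the controls and 19.8, 70.1 and 10.2 in Ptf1a cKO replicates 1, 2 and 3. Digestive enzymes and secreted acinar proteins (37 genes) made up 83.8% to 86.3% of the counts assigned to genes in each control library. In Ptf1a cKO replicates 1, 2 and 3 they made up 50.6%, 66.3% and 39.6% of these counts. Ptf1a cKO replicate 2 thus held the most Ptf1a and the most acinar transcript of its group. In whole tissue, more cells of a type and more RNA per cell cannot be told apart.

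Of the 9 genes, 7 were higher in Ptf1a cKO pancreata and 0 were lower by limma (Benjamini-Hochberg adjustment over all genes, threshold 0.05). Of all genes, 17.1% were called higher and 16.8% lower, 33.9% in all. Thy1, Lum, Vim, Pdgfra and Dcn rose among the 6 genes that are not contractile, and Acta2 and Des rose among the 3 contractile genes. Tagln and Pdgfrb did not pass the threshold. The same 7 genes had all 3 Ptf1a cKO values above all 3 control values, which 26.5% of all genes showed (24.3% the reverse). The median log2 fold change was 1.08 over the 9 genes and 0.036 over all genes tested. With 3 mice per group the smallest two-sided p of the exact permutation test is 0.10, and each of these 7 genes reached it.

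**Figure D1:**
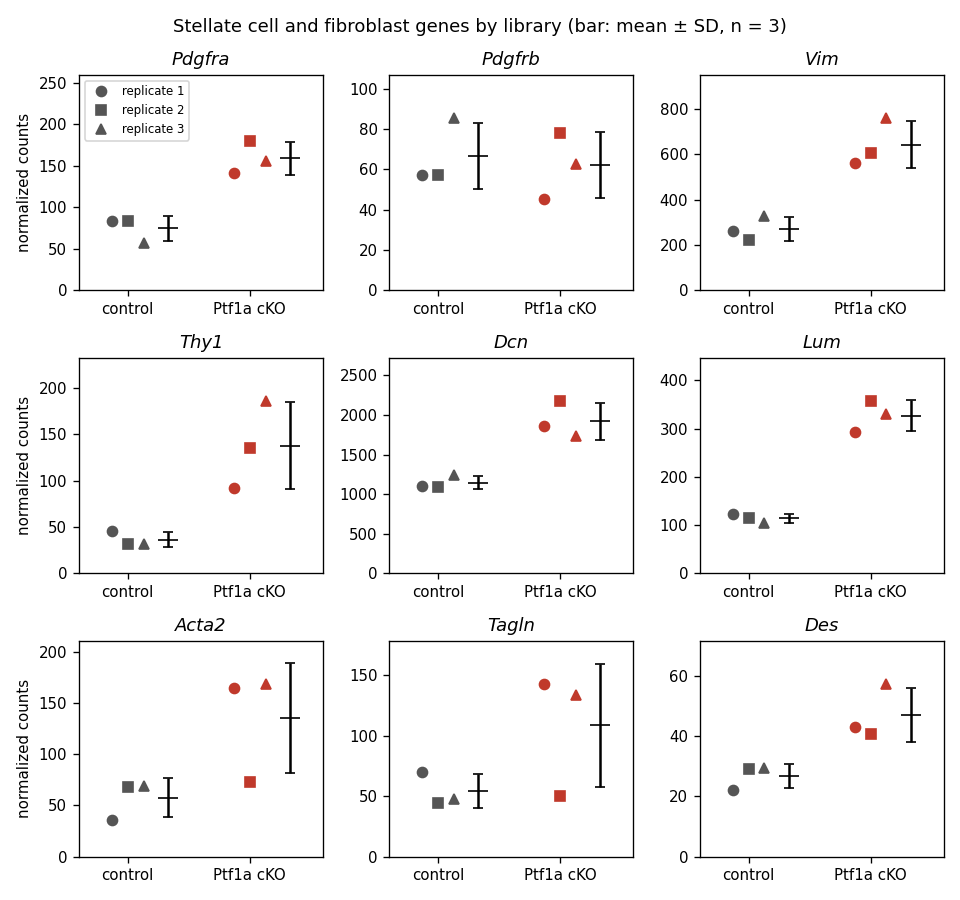
Normalized counts (vertical axis, linear from 0) of the 9 genes in each control library (grey) and each Ptf1a cKO library (red), with the mean and SD of each group (n = 3) as black bars and the replicate number as marker shape. The groups do not overlap for 7 genes and overlap for Pdgfrb and Tagln, and Ptf1a cKO replicate 2 (square) lies near the controls for Acta2 and Tagln.

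The PDGF receptors differed from each other. Pdgfra, the receptor carried by most fibroblasts, was found at 83.2, 83.7 and 56.4 normalized counts in the controls and at 141, 180 and 156 in the Ptf1a cKO libraries. Every Ptf1a cKO library lay above every control, and the log2 fold change was 1.08 (standard error, SE, 0.17, limma adjusted p = 0.00197). Pdgfrb, the receptor shared with pericytes and vascular smooth muscle, was found at 56.9, 57.2 and 85.5 normalized counts in the controls and at 45.1, 78.1 and 62.8 in Ptf1a cKO. Its groups overlapped, with the highest value in a control and the lowest in a Ptf1a cKO library. The log2 fold change of Pdgfrb was -0.10 with a 95% interval from -0.63 to 0.42 (limma adjusted p = 0.755). This interval leaves room for a modest change in either direction but not for one of the size seen for Pdgfra. With all libraries rescaled to equal totals, which calls 93.6% of all genes higher, Pdgfrb passed at 1.31, below the shift of 1.48 in the median gene.

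The ratio of Pdgfra to Pdgfrb within a library does not depend on how libraries are scaled. It was 1.46, 1.46 and 0.660 in the controls and 3.13, 2.30 and 2.48 in the Ptf1a cKO libraries. The groups did not overlap (exact permutation test, two-sided p = 0.10). Of the PDGF ligands, Pdgfa and Pdgfb were analysed. Pdgfb, the ligand that binds both receptors, was lower in Ptf1a cKO, with 92.8, 103.6 and 119.6 normalized counts in the controls and 61.3, 61.5 and 67.5 in Ptf1a cKO (log2 fold change -0.70, limma adjusted p = 0.00551). Pdgfa had 120.3, 109.5 and 109.3 normalized counts in the controls and 139, 317 and 146 in Ptf1a cKO (log2 fold change 0.70, limma adjusted p = 0.0758), with the highest value in replicate 2.

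Thy1 showed the largest change of the 9 genes. It was found at 46.0, 31.7 and 31.3 normalized counts in the controls and at 92.5, 135 and 186 in Ptf1a cKO, so that even the lowest Ptf1a cKO library held more than the highest control. The group means stood 3.79-fold apart, with a log2 fold change of 1.79 (SE 0.25, limma adjusted p = 9.95e-04). Across all genes 194 had a log2 fold change at least that of Thy1, Thy1 included. Since T cells also carry Thy1, their markers were examined. Of 10 T cell genes Lck and Cd4 were analysed, and their summed values were 23.8, 4.07 and 22.2 normalized counts in the controls and 31.1, 4.22 and 172 in the Ptf1a cKO libraries. This sum rests on 2 low genes and was highest in Ptf1a cKO replicate 3. Both genes reached 27.6 normalized counts, the lowest of the genes' highest values, only in that library. Their peak there was thus a condition of being analysed and cannot be set beside Thy1. The part of T cells in the rise of Thy1 was not tested.

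Vim, the filament gene of mesenchymal cells generally, leukocytes and endothelium included, had 263, 222 and 328 normalized counts in the controls and 560, 607 and 761 in Ptf1a cKO. The groups were well apart, and the log2 fold change was 1.24 (SE 0.17, limma adjusted p = 8.49e-04). Des had 22.2, 29.0 and 29.4 normalized counts in the controls and 43.3, 40.7 and 57.3 in Ptf1a cKO. It was the gene with the fewest normalized counts of the panel, and its rise was smaller, with a log2 fold change of 0.73 (SE 0.22, limma adjusted p = 0.0326). The ratio of Vim to Des was 11.8, 7.64 and 11.2 in the controls and 12.9, 14.9 and 13.3 in Ptf1a cKO. It did not overlap between the groups (exact permutation test, two-sided p = 0.10). Among 10 other intermediate filament genes 2 rose and 2 fell, near the shares over all genes (17.1% called higher, 16.8% lower). Synm, whose product synemin partners with desmin and vimentin, rose from 21.9, 13.1 and 28.3 to 45.7, 44.1 and 65.3 normalized counts (log2 fold change 1.20, limma adjusted p = 0.0135). Krt18, a keratin of simple epithelia, rose by 0.45 on the log2 scale (limma adjusted p = 0.0472). Nes, which encodes nestin, fell from 767, 732 and 913 to 81.7, 234 and 83.3 normalized counts (log2 fold change -2.74, limma adjusted p = 5.73e-04), and Plec, which encodes the filament linker plectin, fell with a log2 fold change of -0.51 (limma adjusted p = 0.0293).

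The proteoglycan genes were the least variable members. Dcn had 1099, 1094 and 1237 normalized counts in the controls and 1856, 2175 and 1728 in Ptf1a cKO. All 3 Ptf1a cKO libraries were higher, with a log2 fold change of 0.74 (SE 0.13, limma adjusted p = 0.00276). Lum had 123, 114 and 105 normalized counts in the controls and 292, 357 and 330 in Ptf1a cKO. The spread within each group was below 10% of the mean, the means stood 2.87-fold apart, and Lum had the smallest adjusted p-value of the panel (log2 fold change 1.49, SE 0.12, limma adjusted p = 9.09e-05). The ratio of Lum to Dcn within a library was 0.112, 0.104 and 0.0847 in the controls and 0.158, 0.164 and 0.191 in Ptf1a cKO. These ratios did not overlap (exact permutation test, two-sided p = 0.10), so the 2 neighbouring genes on chromosome 10 rose unequally.

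Of 7 further small leucine-rich proteoglycan genes, 3 rose and 0 fell, against 17.1% of all genes called higher and 16.8% lower. Ogn (osteoglycin) had a log2 fold change of 0.64 (limma adjusted p = 0.00755), Ecm2 of 0.92 (limma adjusted p = 0.00941) and Bgn (biglycan), the most abundant of them, of 1.05 (limma adjusted p = 0.0145). Aspn (asporin) had higher values in each Ptf1a cKO library than in each control but did not pass the threshold (log2 fold change 0.87, limma adjusted p = 0.0887). It reached 27.6 normalized counts, the lowest of the genes' highest values, only in Ptf1a cKO. High values there were thus a condition of its being analysed.

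Lengths were the merged exons of all annotated transcripts of a gene. Per kilobase of this length, Dcn stood highest in both groups, with 196 ± 13.9 normalized counts per kilobase in the controls and 329 ± 39.4 in Ptf1a cKO (SD, n = 3 each). Vim (57.1 ± 11.3) and Lum (46.5 ± 3.65) followed in the controls and did not differ beyond their spread. Tagln (27.3 ± 6.99) and Acta2 (26.2 ± 8.74) came next, also within their spread. Pdgfrb (12.1 ± 2.99) and Thy1 (12.1 ± 2.79) were level in the controls, above Pdgfra (7.43 ± 1.56) and Des (7.15 ± 1.08), which were level with each other. The order of Pdgfrb and Pdgfra rests on merged lengths of 5478 and 10024 bases. Before division by length their control means were 66.5 and 74.4 normalized counts. In Ptf1a cKO pancreata, Thy1 (46.0 ± 15.6) stood above Pdgfrb (11.3 ± 3.02) on this scale. Pdgfra (15.9 ± 1.95) had a higher mean than Pdgfrb but did not differ from it beyond their spread.

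**Figure D2:**
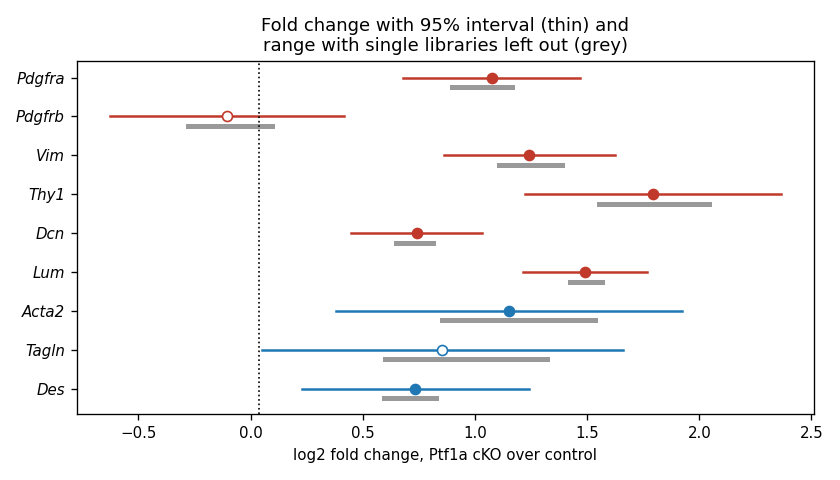
Log2 fold change of Ptf1a cKO over control (horizontal axis) for each gene, with its 95% interval (thin line), the range when single libraries are left out (grey bar) and the median of all genes (dotted line, 0.036). Filled points passed an adjusted p-value of 0.05, blue marks the contractile genes and red the others. Acta2, Tagln and Des have the intervals closest to the dotted line apart from Pdgfrb.

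Acta2 had 35.3, 68.3 and 68.8 normalized counts in the controls and 164, 73.2 and 168 in Ptf1a cKO. Replicates 1 and 3 of the Ptf1a cKO were far above the controls, and replicate 2 lay just above the highest control. The log2 fold change was 1.15 (SE 0.34, limma adjusted p = 0.0292). When each library was omitted in turn, Acta2 kept its call 3 times out of 6. It was lost without control replicate 1 (log2 fold change 0.85, adjusted p = 0.102), without Ptf1a cKO replicate 1 (0.97, adjusted p = 0.0957) and without Ptf1a cKO replicate 3 (0.95, adjusted p = 0.0961), all from limma.

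Tagln had 70.2, 44.6 and 48.0 normalized counts in the controls and 143, 50.3 and 134 in Ptf1a cKO. Here replicate 2 lay within the control range, below control replicate 1. The log2 fold change of 0.85 had an SE of 0.36 and did not pass the threshold (limma adjusted p = 0.0926; exact permutation test, two-sided p = 0.20). Without Ptf1a cKO replicate 2 it was 1.32 and passed (limma adjusted p = 0.00114), and 8 of the 9 genes were then higher, against 18.1% of all genes. The rise of Des was called in 2 of the 6 fits with a library left out, where its log2 fold change ran from 0.59 to 0.82 and its adjusted p-value from 0.0329 to 0.109 (limma). Its call remained without control replicate 3 and without Ptf1a cKO replicate 2 and was lost without any of the other 4 libraries. The calls of Pdgfra, Vim, Thy1, Dcn and Lum held in all 6 such fits.

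The rank of Ptf1a cKO replicate 2 within its group differed between the contractile genes and the rest. For Acta2, Tagln and Des it was the lowest of the 3 Ptf1a cKO libraries. For Pdgfra, Pdgfrb, Dcn and Lum it was the highest, and for Vim and Thy1 it was in the middle. Over all genes it was the lowest in 34.3% and the highest in 34.6%. Relative to the control mean, replicate 2 held 1.27 times the Acta2, 0.926 times the Tagln and 1.52 times the Des. Among the other genes it held 1.17 times the Pdgfrb, 1.90 times the Dcn, 2.24 times the Vim, 2.42 times the Pdgfra, 3.14 times the Lum and 3.71 times the Thy1. By level the 2 groups of genes overlapped, with Pdgfrb below Acta2 and Des. The mean log2 value of the 3 contractile genes minus that of the other 6 was -1.80, -1.46 and -1.52 in the controls and -1.22, -2.48 and -1.46 in the Ptf1a cKO libraries. Its group means differed by -0.13, less than the spread of 0.67 (SD) among the Ptf1a cKO libraries, and by 0.25 without replicate 2. No test was made on this score. Within libraries, the ratios of Acta2 to Pdgfra, to Dcn and to Pdgfrb overlapped between the groups. So did those of Tagln and of Des to Pdgfra and of Tagln to Acta2. Their p-values were 0.20 or more (exact permutation test, two-sided).

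**Figure D3:**
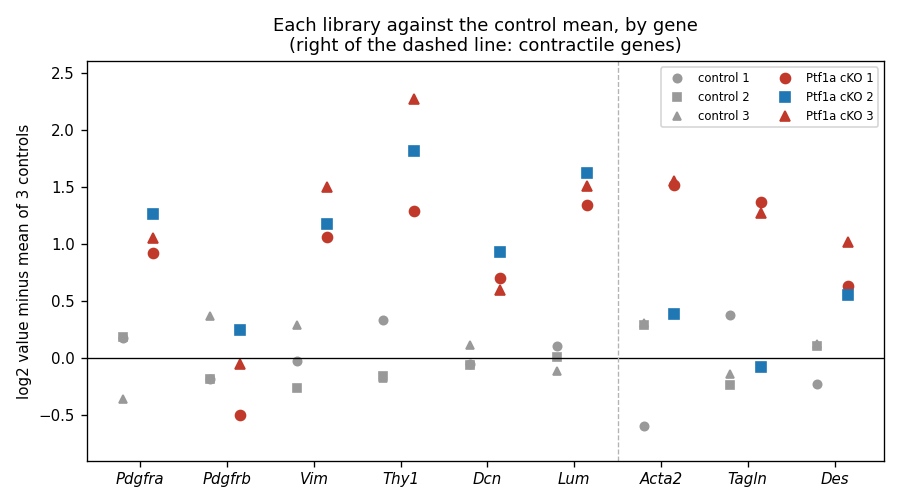
Log2 value minus the mean of the 3 controls (vertical axis) for each gene and library. Grey markers are controls, red markers Ptf1a cKO replicates 1 and 3, and blue squares Ptf1a cKO replicate 2, which is the lowest Ptf1a cKO library for the 3 genes right of the dashed line and the highest for Pdgfra, Pdgfrb, Dcn and Lum.

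Replicate 2 was the only male of its group, and control replicate 1 the only male of the controls, so that sex and library cannot be told apart. Among females alone (control replicates 2 and 3, Ptf1a cKO replicates 1 and 3), a comparison chosen after seeing the data, 7 of the 9 genes were higher past the threshold, against 13.3% of all genes. Tagln passed there (log2 fold change 1.51, limma adjusted p = 7.09e-04), and Des did not (0.71, limma adjusted p = 0.0943). Acta2 was 1.24 higher on the log2 scale between the females (limma adjusted p = 0.00125) and 0.98 higher between the males, 1 mouse of each genotype.

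The promoters of contractile genes are shown because the CArG box, bound by serum response factor, is the best known shared element of smooth muscle genes. Promoter windows of 300 bases (250 before the start site) from RefSeq, build GRCm38.p6, were matched for Pdgfra, Vim, Acta2 and Des, 4 of the 9 genes. The exact consensus letters, a palindromic pattern and thus the same on both strands, were found in 0 of these 4 windows. Of all 32851 windows 1.63% held them. With at most 1 letter off the pattern was found in the window of Acta2 and in 21.1% of all windows. The sequence CAGCTG, an E-box that also reads alike on both strands, was found in Acta2 and Des and in 16.3% of all windows. The 200 bases before the start site follow for Acta2 (chr19:34255374-34255573, minus strand) and Des (chr1:75360092-75360291, plus strand), and for Myl9 (chr2:156775264-156775463, plus strand) and Cnn2 (chr10:79988400-79988599, plus strand), contractile genes described next that rose and hold the exact box within these bases. Vcl, which also rose, holds it farther out at -227, and Srf, which fell, holds 2 such boxes, the first at -82, so that the box was found in genes that moved either way. Capitals mark CAGCTG and, in Acta2, CArG-like stretches with 1 letter off, and in Myl9 and Cnn2 the exact CArG box. A match is only a match of letters, and a stretch with 1 letter off may still be bound by serum response factor.
Acta2: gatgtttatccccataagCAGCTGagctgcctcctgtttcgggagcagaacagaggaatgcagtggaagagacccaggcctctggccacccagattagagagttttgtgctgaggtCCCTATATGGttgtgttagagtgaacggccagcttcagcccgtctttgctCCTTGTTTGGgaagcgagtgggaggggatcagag
Des: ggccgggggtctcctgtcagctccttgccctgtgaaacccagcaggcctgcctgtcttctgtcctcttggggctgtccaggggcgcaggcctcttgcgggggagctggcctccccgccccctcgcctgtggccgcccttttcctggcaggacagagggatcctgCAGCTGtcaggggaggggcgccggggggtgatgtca
Myl9: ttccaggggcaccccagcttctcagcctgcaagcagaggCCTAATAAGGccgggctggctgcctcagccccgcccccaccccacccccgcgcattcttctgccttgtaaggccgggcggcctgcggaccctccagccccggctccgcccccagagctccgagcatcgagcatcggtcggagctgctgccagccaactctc
Cnn2: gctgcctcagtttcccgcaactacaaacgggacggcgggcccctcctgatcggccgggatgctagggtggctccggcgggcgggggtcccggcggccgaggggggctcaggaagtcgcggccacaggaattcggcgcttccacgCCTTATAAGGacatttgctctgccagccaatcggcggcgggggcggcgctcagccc

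Of 22 further smooth muscle and contractile genes 14 were analysed, of which 5 rose and 3 fell, with a median log2 fold change of 0.27. The risers were Myl9, a myosin regulatory light chain (34.8, 39.5 and 39.4 normalized counts in the controls, 104, 58.6 and 78.3 in Ptf1a cKO), Myh11, the smooth muscle myosin heavy chain (66.1, 67.5 and 71.1 against 121, 92.7 and 175), Cnn2 (calponin 2), Flna (filamin A) and Vcl (vinculin). Replicate 2 was the lowest Ptf1a cKO library for Myl9 and Myh11, but over the list it was the lowest in 5 of 14 genes and the highest in 3, near the shares over all genes. The log2 fold changes were 0.98 for Myl9 (limma adjusted p = 0.00746) and 0.85 for Myh11 (limma adjusted p = 0.0135). Flna, Vcl and Cnn2, which cells other than muscle also express widely, changed by 0.93, 0.67 and 1.53. Cnn2 reached 27.6 normalized counts, the lowest of the genes' highest values, only in Ptf1a cKO, so high values there were a condition of being analysed. The genes that fell were Cald1 (caldesmon; log2 fold change -0.87, limma adjusted p = 9.98e-04), Synpo2 (-1.10) and Srf, which encodes serum response factor itself (-0.43, limma adjusted p = 0.0420). The 3 genes that fell were 3 of 14, against 16.8% of all genes called lower, and the 5 that rose stood against 17.1% called higher.

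Of 27 further fibroblast genes 22 were analysed, of which 16 rose and 1 fell, with a median log2 fold change of 0.93. Of all genes, 17.1% were called higher and 16.8% lower. Gli1, among those that rose, reached 27.6 normalized counts, the lowest of the genes' highest values, only in Ptf1a cKO. High values there were thus a condition of its being analysed. The smallest adjusted p-values were those of Col1a1 and Col1a2, the chains of type I collagen, Postn (periostin) and Clec3b (tetranectin). Col1a1 had 229, 216 and 284 normalized counts in the controls and 584, 1419 and 1033 in Ptf1a cKO, the largest log2 fold change of the list (1.96, limma adjusted p = 0.00102). Postn rose from 27.8, 24.6 and 33.6 to 67.8, 93.7 and 120 normalized counts (log2 fold change 1.57, limma adjusted p = 0.00109), and Clec3b had a log2 fold change of 0.71 (limma adjusted p = 0.00169). Cxcl12, a chemokine of fibroblasts, was the gene that fell (log2 fold change -0.63, limma adjusted p = 0.0161). Gsn (gelsolin), the most abundant gene of the list, did not pass (0.28, limma adjusted p = 0.126). Replicate 2 was the highest Ptf1a cKO library in 16 of these 22 genes, against 34.6% of all genes. This was the place it took for Dcn, Lum and Pdgfra.

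Of 16 genes that respond to TGF-beta or mechanical load in activated stellate cells 10 were analysed, and 6 rose while 0 fell. The shares over all genes were 17.1% higher and 16.8% lower. Spp1 (osteopontin), which epithelial cells can also make, rose from between 1327 and 1959 to 87512, 20971 and 105340 normalized counts, Sparc had a log2 fold change of 1.08 (limma adjusted p = 0.0178), Fn1 (fibronectin) of 1.14 (limma adjusted p = 0.0286) and Loxl2 of 0.75 (limma adjusted p = 0.0351). Tgfb3 and Ctgf were the other 2 that rose. For Fn1 the groups overlapped, with 379 normalized counts in Ptf1a cKO replicate 1 and 430 in control replicate 3. Without Ptf1a cKO replicate 2, 3 of the 10 were higher past the threshold, against 18.1% of all genes. With libraries scaled to equal totals of the genes other than digestive enzymes, 1 of the 10 was, near the 10.2% of all genes. Of 12 genes listed for quiescent stellate cells and for retinoid and lipid stores 5 were analysed. Plin2, a lipid droplet protein, rose by 1.29 on the log2 scale (limma adjusted p = 0.00159). Cygb (cytoglobin), a stellate cell marker, rose by 1.05 (limma adjusted p = 0.00204) and Ecm1 by 1.13 (limma adjusted p = 0.0245). For Ecm1 the groups overlapped, with 81.2 normalized counts in Ptf1a cKO replicate 1 and 83.2 in control replicate 3. Fabp5 did not pass (limma adjusted p = 0.544). Nes fell as given above, from control values (767, 732 and 913) that exceeded those of Vim and Des. Nes is not limited to quiescent stellate cells. Which cells the changes of these 5 genes came from was not tested.

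**Figure D4:**
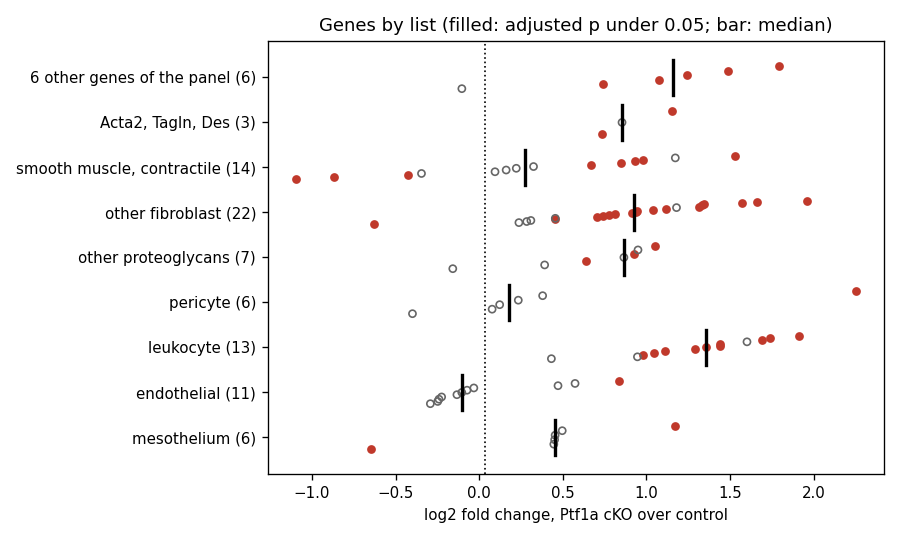
Log2 fold change of Ptf1a cKO over control (horizontal axis) for each gene of 9 lists, with the number of genes analysed in brackets, filled points for genes past an adjusted p-value of 0.05, a bar at the list's median and a dotted line at the median of all genes. Other fibroblast and leukocyte genes lie mostly to the right, and endothelial genes lie around the dotted line.

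Lists for other cells of the pancreas were read beside these results, against 17.1% of all genes called higher and 16.8% lower. Of 13 leukocyte genes 10 rose and 0 fell, with a median log2 fold change of 1.36, and their summed values ran from 843 to 1500 normalized counts in the controls and were 4346, 1882 and 5537 in the Ptf1a cKO libraries. Replicate 2 was the lowest Ptf1a cKO library in 10 of these 13 genes, against 34.3% of all genes. This was the same place it took for Acta2, Tagln and Des. Of 11 endothelial genes 1 rose (Vwf, log2 fold change 0.84, limma adjusted p = 0.0211) and 0 fell, with a median of -0.10, and their sums overlapped (1458 to 1870 normalized counts in the controls and 1515 to 1795 in Ptf1a cKO). Of 6 pericyte genes 1 passed, near the share over all genes. It was Anpep, an aminopeptidase that is not limited to pericytes (log2 fold change 2.25, limma adjusted p = 2.63e-05). Rgs5, Notch3, Mcam, Abcc9 and Angpt1 had log2 fold changes between -0.40 and 0.38 and did not pass, as Pdgfrb did not.

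Of 6 mesothelial genes Lrrn4 rose and Lrrn1 fell. Their sums were 320 to 401 normalized counts in the controls and 299 to 482 in Ptf1a cKO. These calls, like the 1 of 7 among adipocyte genes, were near the shares over all genes (17.1% higher, 16.8% lower). The defining mesothelial gene Msln had between 28.1 and 34.6 normalized counts in the controls and between 37.2 and 50.7 in Ptf1a cKO (limma adjusted p = 0.0958). Adipocyte genes summed to between 220 and 738 normalized counts in the controls and to 476, 803 and 1998 in Ptf1a cKO. Cfd passed, 1 of 7 (log2 fold change 3.24, limma adjusted p = 0.00431). Cfd and Lrrn4 reached 27.6 normalized counts, the lowest of the genes' highest values, only in Ptf1a cKO. Of 8 duct genes 4 rose, Sox9, Spp1, Muc1 and Cldn7, and 0 fell. The part of leukocytes, fat and duct cells in the changes of Vim, Thy1 and the contractile genes was not tested.

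How reads were assigned bears on the contractile genes. Tagln (chromosome 9, 45929619 to 45936058, GRCm38) overlaps Pcsk7 and an antisense gene on the opposite strand, and 58.4% of the 50-base stretches of its annotated transcripts also occur in transcripts of other genes. The sources used here do not say whether strand was used in counting, and without strand such reads could not be told apart. For Acta2 (chromosome 19, 34241090 to 34255590) this share was 0.326%, for Des (chromosome 1, 75360329 to 75368579) 4.61% and for Pdgfra (chromosome 5, 75152292 to 75198215) 4.93%, the last 2 with antisense genes on the opposite strand. For Pdgfrb, Vim, Thy1, Dcn and Lum it was 0%.

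The genes nearest to a member in pattern, by Pearson's r of log2 values over the 6 libraries, were Tmem79, 9030617O03Rik and Tspo for Lum, Sf3b1, Ttc21b and Zfp275 for Acta2, and Shisa4, Wnt2b and Micall1 for Pdgfrb. The difference between the groups dominates this measure, and the 3 nearest of every member had r between 0.971 and 0.999.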

How the data were processed

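Per the labels, reads were processed with TopHat2 2.0.4, Bowtie 0.12.7.0, SAMtools 0.1.18.0 and HTSeq 0.6.0 on build mm9. The authors deposited 1 signal value per gene and library. It is a normalized read count, not whole, scaled with edgeR (TMM) across libraries. Whole reads were not recovered, sequencing depth is unknown from these values, and precision rests on 3 mice per group. The 3 entries that name no gene were left out. They held 75.7% to 82.6% of a library's summed values when counted in with the genes. The lowest of the genes' highest values was 27.6 normalized counts. Each of the 9 genes reached that value in at least 1 control library. Some genes of the further lists, Cnn2, Aspn, Lrrn4, Cfd, Gli1 and Cd52 among them, reached it only in Ptf1a cKO. For these, high values in Ptf1a cKO were a condition of being analysed.

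Values were divided by 13.6, log2(value + 0.25) was taken (a pseudocount of 3.41 normalized counts, which understates changes of low genes), and genes with a mean under 0.25 were to be dropped (0 of 10245). The groups were compared with limma 3.58.1 in R 4.3.3 with a mean-variance trend, two-sided, Benjamini-Hochberg adjusted over all genes. The fit was tested on simulated data. Python 3.11.15 and pandas 2.3.3 were used for tables. Positions and exon lengths are those of GENCODE M21 (GRCm38), not of mm9. The genes, lists and rule for naming genes were chosen with earlier results of these data known. The rule was to name the 4 genes with the smallest adjusted p-values and the most abundant gene of each list. It was not followed for every list, and other genes were chosen after their values were seen. No leukocyte gene was named, and of the endothelial and adipocyte genes only Vwf and Cfd, which passed the threshold, were. From the lists for nerve and glia and for skeletal muscle, 0 genes were analysed. Alternatives were other pseudocounts, filters, scalings and variance models, sex as a covariate, a replicate block and single libraries left out.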

Additional observations from a re-analysis of the deposited data

Results flagged for a closer look

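Tagln moved in opposite directions in the 2 sexes. Both Ptf1a cKO females (143 and 134 normalized counts) lay above both control females (44.6 and 48.0), whereas the Ptf1a cKO male (50.3) lay below the control male (70.2). The log2 difference between genotypes was 1.51 in females and -0.46 in the males, and the difference between the sexes was -1.97. Its interaction term did not pass the threshold (adjusted p = 0.134 from limma over all genes, 4 of which passed), and with 1 male per genotype sex and mouse cannot be told apart.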

How the results depend on the processing

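The number of genes past the threshold, 3475, was 9716 after scaling libraries to equal totals (median gene at 1.48, 98.7% of calls higher) and 1794 at an adjusted p-value under 0.01. After scaling to equal totals of the genes other than digestive enzymes, 29.6% in place of 50.4% of the genes called were higher (10.2% of all genes), and 6 of the 9 genes remained called higher, Des being lost (log2 fold change 0.57, adjusted p = 0.0823, limma). Over all alternatives between 5 and 9 of the 9 were higher past the threshold and 0 were lower. Acta2 was also lost without a mean-variance trend (adjusted p = 0.0526, limma) and with robust estimation (adjusted p = 0.0542, limma). Pdgfrb turned to 1.31 with equal totals and ran from -0.28 to 0.096 with single libraries left out, including 0.081 without control replicate 3. The contractile minus other difference of -0.13 ran from -0.38 to 0.25 with single libraries left out, and was 0.15 in females alone and 0.0070 with Des counted among the other genes. With a replicate block, 8 of the 9 genes were higher and 3525 genes passed, with Tagln at an adjusted p of 0.0250 (limma). The labels do not pair the mice, and the deviations of same-numbered mice correlated at 0.039, 0.13 and 0.14 across genes. Models of whole reads were not run.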
